A study of Rattus norvegicus with 108 samples.

Results

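Nr3c1, Nr3c2, Fkbp5, Tsc22d3, Sgk1, Per1, Klf9 and Zbtb16 were followed through droplet RNA profiles of the rat dentate gyrus. The first pair are the receptors for glucocorticoids and the other 6 are genes that these hormones are known to induce. They were picked by symbol, and all 8 of 8 were found among the 19127 genes of the count tables. Tissue was taken from male Long-Evans rats, 2 months old at the start, and split into the dorsal (dorDG) and the ventral part (venDG) of the dentate gyrus. The FT groups took fluoxetine, a serotonin reuptake inhibitor, in their drinking water at 18 mg per kg for 6 weeks, and the Sham groups took water alone. The labels name no glucocorticoid treatment in any group. Each replicate was tissue pooled from several rats, with 4 replicates in dorDG FT and 5 in each of dorDG Sham, venDG FT and venDG Sham. Without separate values per animal, the spread between replicates is that between pools.

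Corticosterone, the main glucocorticoid of the rat, binds the mineralocorticoid receptor (encoded by Nr3c2) with high affinity and the glucocorticoid receptor (Nr3c1) with lower affinity, so that the former is largely occupied at rest and the latter fills during stress and at the daily peak. Both are transcription factors that move to the nucleus on binding and act at shared DNA motifs. The hippocampus is known for its high content of mineralocorticoid receptor, and adult neurogenesis in the dentate gyrus is sensitive to glucocorticoids.

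The response genes have different roles. Fkbp5 encodes a co-chaperone of the receptor complex that lowers hormone affinity and closes a feedback loop. Tsc22d3 encodes GILZ, an anti-inflammatory leucine zipper protein, and Sgk1 a serum- and glucocorticoid-regulated kinase. Per1 is a clock gene that also responds to stimulation, and Klf9 and Zbtb16 (PLZF) encode zinc finger transcription factors.

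The promoter windows of 2 response genes are shown because they are the member windows that hold TGACG, 1 of 4 short motifs searched. Both are the 250 bases before a RefSeq transcription start in build GRCr8, and capitals mark TGACG, the core of the cAMP response element. The Klf9 window is chr1:230126396-230126645 on the plus strand and the Tsc22d3 window is chrX:109010035-109010284 on the minus strand.
Klf9: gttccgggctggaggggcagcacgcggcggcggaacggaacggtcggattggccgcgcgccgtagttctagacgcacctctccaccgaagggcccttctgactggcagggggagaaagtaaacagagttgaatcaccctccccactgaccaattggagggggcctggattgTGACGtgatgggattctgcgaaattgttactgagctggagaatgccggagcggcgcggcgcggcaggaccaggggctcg
Tsc22d3: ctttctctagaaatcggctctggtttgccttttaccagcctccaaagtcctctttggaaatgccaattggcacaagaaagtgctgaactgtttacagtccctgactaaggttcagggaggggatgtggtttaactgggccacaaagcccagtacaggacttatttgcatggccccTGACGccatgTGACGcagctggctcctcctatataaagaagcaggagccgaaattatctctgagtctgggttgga

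In the Klf9 window the first base of the match was at -79 from the start, and in the Tsc22d3 window the matches began at -75 and -65. RefSeq windows were given for 6 of the 8 members, 11 windows in all, and Nr3c2 and Zbtb16 had no entry. On either strand, TGACG was in 2 of the 11 member windows and in 18.2% of all 33469 windows of the same length. AGAACA, which makes up each arm of the glucocorticoid response element, was in 0 of 11 member windows and 17.5% of all windows. The E-box CACGTG was in 0 of 11 against 5.59%, and the GC box GGGCGG in 7 of 11 against 30.5%. These are counts of letters in short windows, and receptor sites are often far from the start.

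The tables held 3347 cells, 1289 from dorDG and 2058 from venDG, with 220162 to 1523537 unique molecular identifiers (UMIs, counts of distinct RNA molecules) per replicate. Of the 19 replicates, 8 had been loaded in 2 droplet reactions and 11 in 1, and 9 cell barcodes occurred in more than 1 reaction. By the methods both whole cells and nuclei were prepared, while the labels speak of nuclei alone, and neither says which reaction held which. The reactions fell apart in their share of low-ribosomal cells, here cells with under 2% of UMIs from cytosolic ribosomal protein genes. That share was 4.08% to 15.5% in the first and 78.3% to 95.9% in the second reactions of the 8 replicates, and 14.5% to 72.0% in the 11 replicates of 1 reaction. In dorDG it was 23.0% on average in FT (14.5% to 42.1%, n = 4) and 51.2% in Sham (31.9% to 72.0%, n = 5; two-sided exact permutation test, p = 0.0317), so FT and Sham were also compared without these cells.

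Nr3c2 and Zbtb16 moved one way with this property of the cells and Sgk1 and Tsc22d3 the other. Per1 fell between reactions but not in every comparison below. Between the first and second reaction of the same 8 replicates, 8 of 8 members differed in the edgeR quasi-likelihood test with the replicate as a block. Here and below, a gene counts as called when its adjusted p (Benjamini-Hochberg) is no more than 0.2 and its log2 fold change is 0.322 or more in size. The background was large, with 71.6% of the 11419 genes tested called. The level of Nr3c2 was 0.558 to 1.21 UMIs per 10000 (median 0.866) in the first reactions and 2.77 to 9.96 (median 3.98) in the second. It was higher in the second reaction in 8 of 8 replicates, without overlap (log2 fold change 1.83 ± 0.23 (SE), adjusted p = 6.1e-07 by edgeR). Zbtb16 went the same way, with 0.123 to 0.615 UMIs per 10000 (median 0.378) in the first and 0.686 to 2.29 (median 1.59) in the second reactions. The ranges were separate, and the log2 fold change was 1.33 ± 0.23 (SE, edgeR adjusted p = 4.7e-05). Fkbp5 was at 0 to 0.176 UMIs per 10000 in the first and 0.177 to 0.577 in the second reactions, from at most 13 UMIs in any 1 reaction, with a log2 fold change of 1.01 ± 0.38 (SE). Klf9 was higher in the second reaction in 7 of 8 replicates, with overlapping ranges (medians 0.422 and 0.873 UMIs per 10000, log2 fold change 0.50 ± 0.22 (SE)).

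Sgk1, Tsc22d3 and Per1 went the other way. The level of Sgk1 was 1.43 to 2.30 UMIs per 10000 (median 1.84) in the first and 0.155 to 0.621 (median 0.316) in the second reactions. All 8 second reactions were below all 8 first ones, with a log2 fold change of -3.04 ± 0.24 (SE, edgeR adjusted p = 9.7e-10). Tsc22d3 ranged from 0.597 to 1.03 UMIs per 10000 (median 0.704) in the first and from 0.0503 to 0.510 (median 0.255) in the second reactions, again with no overlap (log2 fold change -2.12 ± 0.25 (SE)). Per1 was lower in the second reaction in 8 of 8 replicates, but its ranges of 0.400 to 3.04 and 0 to 1.10 UMIs per 10000 overlapped (log2 fold change -2.65 ± 0.41 (SE)). Nr3c1 was at a median of 0.427 UMIs per 10000 in the first and 0.415 in the second reactions, higher in the second in 3 of 8 replicates. Its log2 fold change of -0.43 ± 0.26 (SE, edgeR adjusted p = 0.165) passed the thresholds but became 0.12 (adjusted p = 0.696) when counts were scaled by total UMIs without the TMM step. That scaling moved the median log2 fold change of all genes from 0.06 to 0.62 and left the directions of the other 7 members as they were.

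**Figure D1:**
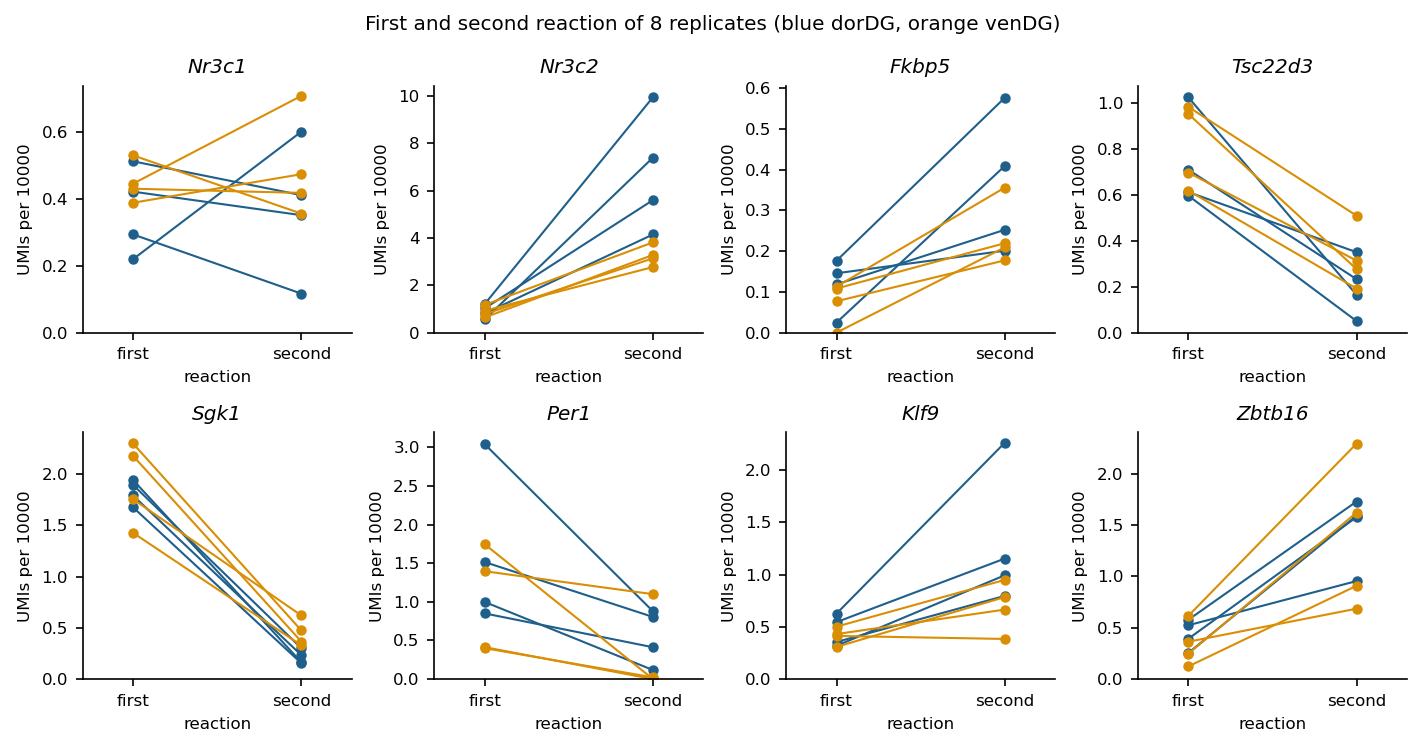
Level of each member in UMIs per 10000 (y axis, linear from 0) in the first and second reaction of 8 replicates, with lines joining the reactions of 1 replicate (blue dorDG, orange venDG). Nr3c2, Zbtb16 and Fkbp5 rise along every line, Sgk1, Tsc22d3 and Per1 fall along every line, and Nr3c1 has lines in both directions.

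For Nr3c2, Zbtb16, Sgk1 and Tsc22d3 the same direction was measured without the second reactions. In the 11 replicates loaded in 1 reaction, low-ribosomal and other cells of the same replicate were compared, a split added after the data had been seen and made on the ribosomal counts of the same cells. Of 4412 genes tested, 84% were called, as were 4 of the 6 members that passed the filter on low counts. Against the other cells of their replicate, low-ribosomal cells had less Sgk1 (log2 fold change -2.47 ± 0.25 (SE)) and less Tsc22d3 (-2.76 ± 0.29). They had more Nr3c2 (1.66 ± 0.17) and more Zbtb16 (1.26 ± 0.19). Klf9 (-0.03 ± 0.20) and Per1 (0.09 ± 0.21) did not pass, though both were called higher, at 0.34 and 0.46, with total UMIs as the scale.

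Within annotated cell classes of both regions, which members were called varied. Among oligodendrocytes (13 replicates, 72.8% of 4154 genes called), 7 of 7 tested members were called, including Nr3c2 at 1.45 ± 0.31, Sgk1 at -2.32 ± 0.34 and Tsc22d3 at -1.44 ± 0.42 on the log2 scale (± SE). Among microglia (7 replicates, 49.2% called), Sgk1 was at -2.22 ± 0.51, Tsc22d3 at -2.64 ± 0.77 and Per1 at -1.59 ± 0.68, all 3 called, while Nr3c2 at 0.73 ± 0.54 was not. Among astrocytes (12 replicates, 71% called), Nr3c2 at 2.12 ± 0.45 and Zbtb16 at 1.61 ± 0.61 were called higher and Tsc22d3 at -1.05 ± 0.62 and Per1 at -1.07 ± 0.57 lower in the low-ribosomal cells, and Sgk1 was under the filter. Among oligodendrocyte precursors (OPC, 4 replicates, 24% called), only Sgk1 at -2.93 ± 1.19 was called of the 5 members tested, with Nr3c2 at 1.14 ± 0.76. With all cells of a type pooled, the Nr3c2 level was higher in low-ribosomal than in other cells in 12 of 12 dorDG types and 9 of 10 venDG classes, and the Tsc22d3 level was lower in 12 of 12 and 10 of 10.

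**Figure D2:**
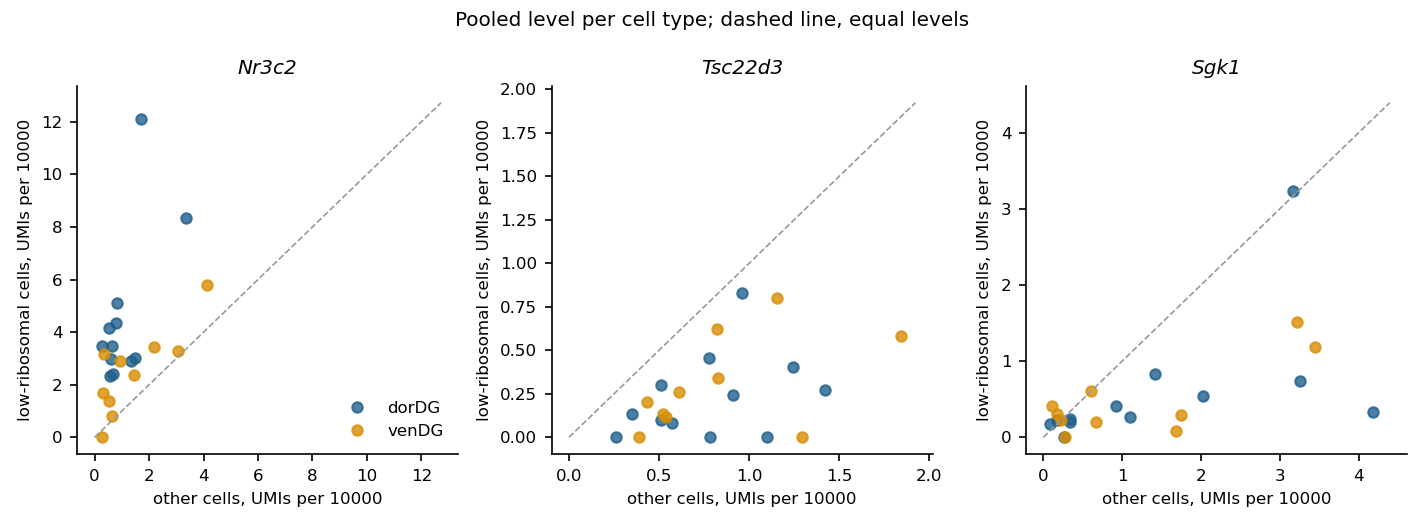
Pooled level in low-ribosomal cells (y axis) against that in the other cells (x axis), in UMIs per 10000, 1 point per annotated dorDG type (blue) or named venDG class (orange), with a dashed line at equal levels. Nr3c2 points lie above the line except for 1 venDG class and Tsc22d3 points lie below it, and most Sgk1 points lie below it.

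Other genes of the pathway were counted from lists fixed beside the members. Their counts are to be read against the 71.6% of all genes called between reactions. Of 15 receptor cofactors and chaperones, 13 were called, 5 higher and 8 lower in the second. The chaperone genes Dnajb1 (log2 fold change -5.07 ± 0.28 (SE)), Hsp90aa1 (-3.97 ± 0.24) and Hsp90ab1 (-3.24 ± 0.22) were among the lower ones. Of 6 genes of steroid metabolism and transport, 3 were called, 2 higher (H6pd at 0.79 ± 0.42 and Abcb1a at 0.41 ± 0.26) and 1 lower. The lower one was Por, which donates electrons to steroid hydroxylases, at -0.59 ± 0.22, and it was at -0.03 and not called without TMM. Abcb1a went the other way, at -3.13 ± 0.27, in low-ribosomal against other cells of the replicates of 1 reaction. Of 16 other glucocorticoid response genes tested, 13 were called, 1 higher and 12 lower, with a median of -2.0 for the list against 0.06 for all genes. They included the phosphatase gene Dusp1 (-4.93 ± 0.38), the NF-kB inhibitor gene Nfkbia (-4.67 ± 0.26) and the glutamine synthetase gene Glul (-3.52 ± 0.31). Immediate early genes, which tissue dissociation is known to raise, were lower for 9 of 10 tested, with Fos at 5.68 to 19.1 UMIs per 10000 in the first and 0 to 0.198 in the second reactions. Whether dissociation had a part in the levels of Sgk1, Tsc22d3 or Per1 was not tested.

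The question of the design, whether members differed between FT and Sham, was addressed with replicate sums, with FT minus Sham tested in each region. In such sums, fewer cells of a type and less RNA per cell cannot be told apart. In dorDG, 0 of 8 members were called by edgeR, while 0.912% of 11299 genes were. At an unadjusted p under 0.05 there were 3 members, Zbtb16, Sgk1 and Nr3c2, and 2005 of all genes. DESeq2 called 2 members, Sgk1 and Nr3c2, and 9.69% of genes. Without the low-ribosomal cells, edgeR called 0 members and 0 genes, with 323 genes and 0 members at an unadjusted p under 0.05.

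Sgk1 was at 1.65, 1.54, 2.19 and 1.82 UMIs per 10000 in the dorDG FT replicates and at 0.968, 1.33, 1.18, 1.23 and 1.44 in the Sham replicates. All FT replicates were above all Sham ones (two-sided exact permutation test, p = 0.0159, the smallest this design allows and 1 of 16 unadjusted tests). The edgeR log2 fold change was 0.68 ± 0.23 (SE, adjusted p = 0.229). In cells with at least 2% ribosomal UMIs, a repeat added after seeing the data, the means were 2.06 and 1.90 UMIs per 10000 (exact permutation p = 0.508) and the log2 fold change was 0.11.

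Zbtb16 was at 0.765, 0.621, 0.420 and 0.463 UMIs per 10000 in dorDG FT and at 0.877, 0.743, 2.08, 1.18 and 1.11 in Sham. Only FT replicate 1 lay above the lowest Sham replicate (exact permutation p = 0.0317, edgeR log2 fold change -0.89 ± 0.27 (SE), adjusted p = 0.216). In cells with at least 2% ribosomal UMIs its means were 0.461 and 0.528 (exact permutation p = 0.540).

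Nr3c2 was at 1.77, 3.17, 1.01 and 0.994 UMIs per 10000 in dorDG FT and at 3.74, 1.80, 7.36, 2.86 and 2.85 in Sham. FT replicate 2, the one with the highest low-ribosomal share of its group, lay within the Sham range, and the highest value of all was that of Sham replicate 3, where 72.0% of cells were low-ribosomal. The exact permutation p was 0.0952, and the edgeR log2 fold change of -0.92 ± 0.38 (SE, adjusted p = 0.255) became -0.19 in cells with at least 2% ribosomal UMIs and 0.12 with the low-ribosomal share as a covariate.

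Nr3c1 showed no such gap, with 0.497, 0.407, 0.387 and 0.325 UMIs per 10000 in dorDG FT and 0.398, 0.242, 0.510, 0.427 and 0.426 in Sham (means 0.404 ± 0.071 and 0.400 ± 0.098 (SD), log2 fold change 0.17 ± 0.24 (SE), edgeR adjusted p = 0.700). Tsc22d3 was at 0.886, 0.474, 1.46 and 0.600 in FT and 0.488, 0.536, 0.387, 0.986 and 0.537 in Sham. Its ranges overlapped (log2 fold change 0.68 ± 0.34 (SE), edgeR adjusted p = 0.303). The means of Klf9 were 0.796 ± 0.146 and 0.651 ± 0.167 (SD) UMIs per 10000 in FT and Sham, those of Fkbp5 0.160 ± 0.065 and 0.206 ± 0.063, and those of Per1 0.996 ± 0.259 and 1.06 ± 0.77, all with overlapping ranges. The log2 fold changes were 0.43 ± 0.24 (SE) for Klf9, -0.18 ± 0.34 for Fkbp5 and -0.01 ± 0.42 for Per1. In cells with at least 2% ribosomal UMIs the log2 fold changes were 0.20 ± 0.26 for Nr3c1, 0.15 ± 0.30 for Tsc22d3, 0.29 ± 0.25 for Klf9, 0.24 ± 0.52 for Fkbp5 and -0.24 ± 0.48 for Per1. The exact permutation p of these 5 ran from 0.270 to 0.968. Single Sham replicates decided the count of members called in dorDG. Without Sham replicate 2, whose Per1 level of 2.40 UMIs per 10000 was the highest, edgeR called Sgk1, Zbtb16, Nr3c2 and Per1 (0.68, adjusted p = 0.135), and without Sham replicate 4 it called Sgk1, Zbtb16, Nr3c2 and Tsc22d3 (0.93, adjusted p = 0.191). These fits called 22.2% and 12.2% of all genes. Leaving out any of the other 7 replicates gave 0 members.

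**Figure D3:**
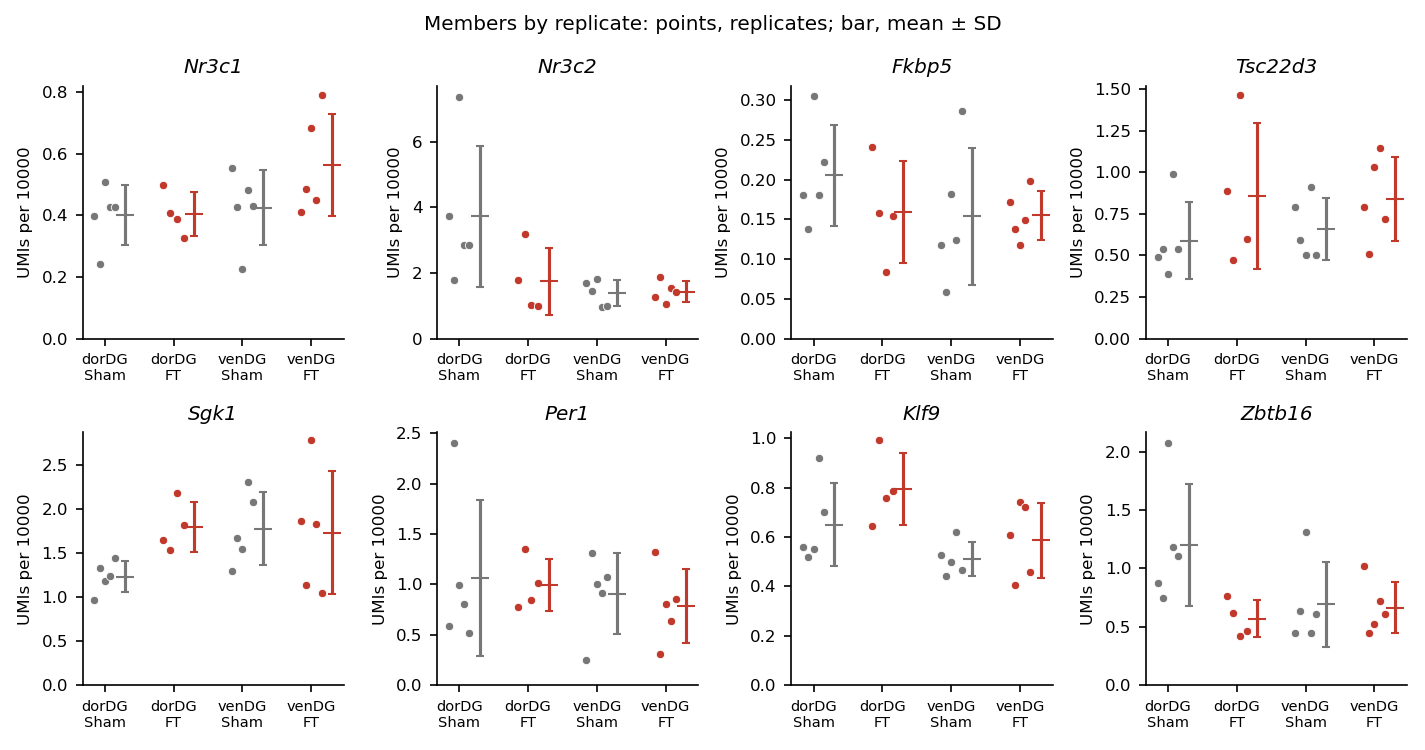
Level of each member in UMIs per 10000 (y axis, linear from 0) in every replicate (points), with mean ± SD (bars), for Sham (grey) and FT (red) in dorDG and venDG. Sgk1 in dorDG is the case in which FT and Sham replicates do not overlap.

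The cell makeup also differed between the dorDG groups. On average, 16.6% of FT cells and 31.5% of Sham cells were annotated as ExcitNeuron, InhibNeuron or Granule (exact permutation p = 0.0476), and cells annotated as Mossy 8.64% and 2.86% (exact permutation p = 0.0159, no overlap). Summed levels of 7 mural markers ranged from 2.36 to 6.15 UMIs per 10000 in dorDG FT and from 0.571 to 3.62 in Sham, and those of 7 granule cell markers from 2.44 to 3.46 and from 2.85 to 7.62. Their part in the levels of the members was not tested beyond the fits within types given below.

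**Figure D4:**
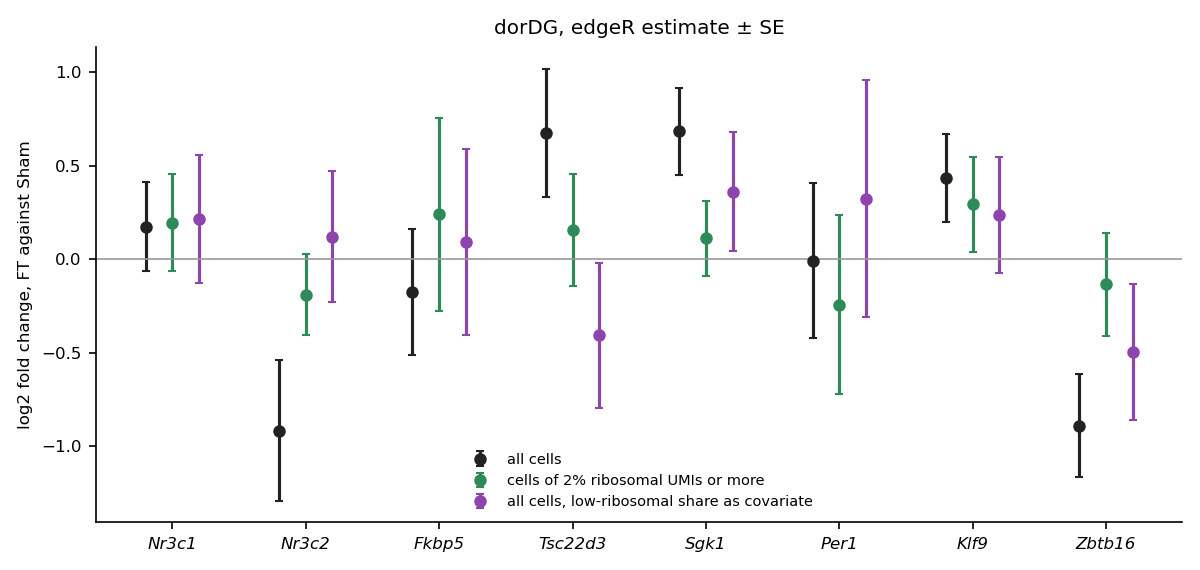
Log2 fold change of FT against Sham in dorDG (y axis, edgeR estimate ± SE) for the 8 members over all cells (black), over cells with at least 2% ribosomal UMIs (green) and over all cells with the low-ribosomal share as a covariate (purple). The estimates for Nr3c2 move from -0.92 over all cells to -0.19 and 0.12, and those for Sgk1 from 0.68 to 0.11 and 0.36.

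In venDG, where the low-ribosomal share averaged 30.3% over FT and 40.1% over Sham replicates (exact permutation p = 0.325), members were close between groups. edgeR called 0 of 8 members and 0 of 11105 genes (0% of the genes tested), and DESeq2 called 2 genes and 0 members. Without adjustment, 561 genes and 0 members had an edgeR p under 0.05. Nr3c2 was at 1.28, 1.87, 1.04, 1.54 and 1.43 UMIs per 10000 in FT and at 1.68, 1.45, 1.82, 0.967 and 1.0 in Sham. The groups covered the same range (log2 fold change 0.10 ± 0.23 (SE)). Sgk1 was at 1.86, 1.14, 2.78, 1.82 and 1.05 in FT and at 1.29, 1.67, 1.54, 2.30 and 2.08 in Sham, again overlapping (0.01 ± 0.27). The largest shift in venDG by this estimate was that of Nr3c1, at 0.410, 0.485, 0.683, 0.449 and 0.791 UMIs per 10000 in FT and 0.554, 0.428, 0.227, 0.483 and 0.430 in Sham, with a log2 fold change of 0.38 ± 0.25 (SE, edgeR adjusted p = 0.880). The log2 fold changes of the other 5 members ran from -0.16 ± 0.38 for Per1 to 0.33 ± 0.25 for Tsc22d3.

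The difference between the regional effects was tested as an interaction, which called 0 of 8 members and 0% of 11220 genes by edgeR and by DESeq2. At an unadjusted p under 0.05 there were 864 genes, among them Zbtb16 (log2 difference of venDG minus dorDG effects 0.98 ± 0.42 (SE), p = 0.0283, adjusted p = 0.616) and Nr3c2 (1.04 ± 0.46, p = 0.0314, adjusted p = 0.624). Over both regions together edgeR called 0 of 8 members against 13.5% of genes. This fit counted the dorDG and venDG sums as independent. By the methods both regions were punched from brains of the 2 treatment groups. Same-numbered replicates correlated across regions at 0.20 to 0.56 in Sham and 0.096 to 0.35 in FT. Across regions and treatments, where the rats differ, the same number gave -0.028 to 0.47 for dorDG FT with venDG Sham. It gave -0.072 to 0.36 for dorDG Sham with venDG FT. What replicates of a number share was not tested. If a number stands for the same rats in both regions, the treatment p-values of this fit could be too small. The block on the replicate number also joins FT and Sham, so it does not remove this dependence. Tsc22d3 (0.52 ± 0.22, adjusted p = 0.205) and Klf9 (0.35 ± 0.16, adjusted p = 0.231) were under an unadjusted p of 0.05, as were 2195 of 11220 genes. DESeq2 called Tsc22d3, Klf9 and Zbtb16 and 14.5% of genes. A block on the replicate number led edgeR to call Klf9 and Tsc22d3 and 17.2% of genes, and in cells with at least 2% ribosomal UMIs it called 0 members and 0 genes. Leaving out 1 replicate at a time gave 0 to 3 members called and 5 to 2295 genes, with 3 members (Sgk1, Klf9 and Tsc22d3) without venDG Sham replicate 4. Of the other pathway lists, the chaperone gene Dnajb1 was called in dorDG (1.33 ± 0.31 (SE), adjusted p = 0.182), as 1 of 15 cofactors where 0.912% of genes were called. Dnajb1 was at 0.54 and not called in cells with at least 2% ribosomal UMIs. In low-ribosomal against other cells of the same replicate, over the 11 replicates of 1 reaction, it was at -3.92. Over both regions, Dnajb1 (0.71 ± 0.22), Hsp90ab1 (0.45 ± 0.18), Mgst1 (0.75 ± 0.30), Glul (0.62 ± 0.18), Ddit4 (0.42 ± 0.16) and the immediate early gene Fosb (0.68 ± 0.27) were called higher in FT. The drug transporter gene Abcb1b (-0.82 ± 0.21) and the sulfotransferase gene Sult1a1 (-0.63 ± 0.22) were called lower. The counts were 2 of 15 cofactors, 1 of 6 steroid handling genes, 4 of 20 other response genes and 1 of 10 immediate early genes, and in venDG alone 0 of each list.

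Regions were compared with FT and Sham averaged, and 0 of 8 members were called by edgeR against 0.223% of genes (2 members under an unadjusted p of 0.05, and 1, Nr3c2, called by DESeq2). Within Sham, Nr3c2 was the 1 member called, lower in venDG (log2 fold change -1.3 ± 0.32 (SE), edgeR adjusted p = 0.127, against 0.722% of genes called). The 5 dorDG Sham values of 1.80 to 7.36 UMIs per 10000 and the 5 venDG Sham values of 0.967 to 1.82 met only at their ends. Cells of neuron types (ExcitNeuron, InhibNeuron and Granule, and the 3 neuron classes of venDG) were 31.5% of dorDG Sham and 9.67% of venDG Sham cells, and low-ribosomal cells 51.2% and 40.1%. The neuron shares rest on unlike naming, the authors' labels in dorDG and a marker rule in venDG. Unnamed venDG cells, not counted as neurons, included a cluster of 137 cells over FT and Sham led by excitatory markers. Another, of 58 cells, was led by excitatory and inhibitory markers. The Nr3c2 means were 1.15 and 0.752 UMIs per 10000 in cells with at least 2% ribosomal UMIs, where the call was lost (-0.54). It was lost too in low-ribosomal cells alone (-1.24, adjusted p = 0.245), with the low-ribosomal share as a covariate (-0.92, adjusted p = 0.274) and with limma (adjusted p = 0.283). It was also lost, at -1.37 to -0.96, when dorDG Sham replicate 1 or 3 or venDG Sham replicate 1, 4 or 5 was left out. Within FT, 0 members and 0.0446% of genes were called, with Nr3c2 at -0.26 ± 0.33. Within 5 classes found in both regions (added after seeing the data), 0 of 26 member tests passed against 0.0375% of tests over all genes. The Nr3c2 estimate was below 0 in 5 of 5 classes, from -0.78 in microglia to -0.04 in endothelial cells. Over all cells, with FT and Sham averaged, Nr3c2 was called (-0.86, edgeR adjusted p = 0.158) when dorDG Sham replicate 2 was left out. A block on the replicate number gave the same call (-0.77, adjusted p = 0.179). In this averaged contrast it was also called in cells under 2% ribosomal UMIs and with the low-ribosomal share as a covariate. It was not called in cells with at least 2%. The estimate ran from -0.86 to -0.37 under the 10 alternatives other than leaving out a replicate.

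The balance of the receptors was measured as the share of Nr3c2 in the summed UMIs of Nr3c1 and Nr3c2. Counts per gene depend on how each transcript is captured, so the share was compared between samples and not read as a ratio of molecules. In dorDG it was 78.1%, 88.6%, 72.3% and 75.3% in FT and 90.4%, 88.1%, 93.5%, 87.0% and 87.0% in Sham. FT replicate 2 lay within the Sham range and the other 3 below it (78.6% ± 7.1 and 89.2% ± 2.8 (SD), two-sided exact permutation test, p = 0.0635). In cells with at least 2% ribosomal UMIs it was 67.0%, 72.0%, 68.8% and 72.5% in FT and 73.8%, 76.9%, 75.0%, 74.7% and 75.4% in Sham. There all FT shares were below all Sham shares by a narrow margin (means 70.0% and 75.2%, exact permutation p = 0.0159, unadjusted). They rest on 24 to 107 receptor UMIs per replicate, and the 95% Clopper-Pearson intervals of the nearest pair, 60.4% to 82.5% in FT replicate 5 and 60.9% to 84.2% in Sham replicate 1, overlap nearly whole. In venDG the means were 71.5% ± 8.5 over FT and 75.6% ± 8.5 over Sham replicates (SD, exact permutation p = 0.460), and 59.0% and 61.0% in cells with at least 2% ribosomal UMIs (p = 0.714 by the same exact permutation test).

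Across cell types the levels are a description, since types were drawn from the same counts. For dorDG the 12 types carry the authors' names, and some names did not match their markers. In cells named Mossy, 7 of 7 mural markers reached 2-fold over all other dorDG cells and summed to 28.7 against 0.92 UMIs per 10000. So did 4 of 5 endothelial markers, which summed to 33.9 against 8.84, and 4 of 6 fibroblast markers (0.764 against 0.113). Cells named InhibNeuron had 5 of 7 granule cell markers above (13.1 against 2.67) and 1 of 9 inhibitory markers, and cells named Granule had 4 of 4 erythroid markers above. The names are therefore used below only as labels of the annotation. For venDG, classes were named from markers with the ending -like, and 235 cells stayed unnamed. Means of types pool FT and Sham replicates. The FT and Sham numbers were 1 and 3 in ExcitNeuron, 2 and 4 in InhibNeuron and 4 and 5 in Granule.

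Nr3c2 was highest in cells annotated as neurons, at 11.7 ± 6.0 UMIs per 10000 in ExcitNeuron (SD, n = 4 replicates with at least 5 cells), 6.64 ± 1.74 in InhibNeuron (n = 6) and 3.99 ± 4.07 in Granule (n = 9). ExcitNeuron was above InhibNeuron in 4 of 4 shared replicates, and InhibNeuron was above Granule in 5 of 6 and above each of the other 9 types in every shared replicate. The other 9 types had means from 0.732 ± 0.545 in Microglia1 (n = 9) to 1.96 ± 1.27 in AstroSub1 (n = 8), with gaps between neighbours smaller than their SD. The pooled level was lower in the cells of these types that were not low-ribosomal. In those, the Nr3c2 level was 1.71 in ExcitNeuron, 3.36 in InhibNeuron and 0.83 in Granule, against 1.48 in Endothelial. In venDG, Nr3c2 was at 4.88 ± 2.03 in Granule-like (n = 8), 3.29 ± 1.38 in Excitatory-like (n = 8) and 2.77 ± 2.82 in Inhibitory-like cells (n = 3), and at 1.44 or less elsewhere. Granule-like cells were above every glial and vascular class in all shared replicates, and there the level was 4.13 also in the cells that were not low-ribosomal.

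Zbtb16 followed nearly the same order. It was at 2.27 ± 0.38 UMIs per 10000 in InhibNeuron, 2.25 ± 0.99 in ExcitNeuron and 1.13 ± 0.85 in Granule, and at 0.773 or less in the others. The first 2 did not differ beyond their spread. In the cells that were not low-ribosomal, the pooled level was 1.55 in InhibNeuron, 0.683 in ExcitNeuron and 0.415 in Granule, against 0.577 in Endothelial and 0.537 in Mossy. BergGlia had 0 of 49756 UMIs, which allows up to 0.603 per 10000 (3 counts, counting error only). In venDG the 3 neuron classes led with means of 1.45 to 1.69.

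Nr3c1 was flat by comparison. Its dorDG means ran from 0.191 ± 0.164 in Granule to 0.773 ± 0.923 UMIs per 10000 in BergGlia. No type stood apart from its neighbours by more than their SD, but this was also so for Nr3c2 and does not tell the genes apart. The share of receptor UMIs that are Nr3c2 therefore followed Nr3c2, with 96.5% in ExcitNeuron (95% Clopper-Pearson interval 94.1% to 98.0%, counting error only), 95.8% in Granule and 93.4% in InhibNeuron. It was 66.2% in Microglia1 (54.3% to 76.8%). In venDG it ran from 94.2% in Granule-like cells (90.6% to 96.7%) to 48.6% in Microglia-like (40.3% to 57%) and 46.9% in Oligodendrocyte-like cells (40.4% to 53.4%). These shares are over all cells of a type. In low-ribosomal cells the share was 97.0% in ExcitNeuron, 94.8% in InhibNeuron and 91.9% in Oligodend1. In the other cells it was 87.0%, 86.2% and 64.5%. In venDG the low-ribosomal and other cells had 94.4% and 93.9% in Granule-like, 90.5% and 41.6% in Microglia-like and 75.0% and 41.9% in Oligodendrocyte-like. The part of the low-ribosomal share in this order was not tested.

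Sgk1 had the reverse order. It was highest in Microglia1 (3.51 ± 1.56 UMIs per 10000, n = 9), Microglia2 (3.26 ± 2.18, n = 9) and Oligodend2 (2.98 ± 0.97, n = 7), which did not differ beyond their spread, followed by Endothelial (1.94 ± 1.10) and Oligodend1 (1.38 ± 0.75). Microglia1 and Oligodend2 were above each neuron type in every shared replicate. AstroSub1 and the types annotated as neurons were at 0.138 to 0.379, and BergGlia held 1 UMI in all. These levels are over all cells of a type. In 9 of 12 dorDG types the pooled Sgk1 level was lower in low-ribosomal than in other cells. The part of the low-ribosomal share in this order was not tested. In venDG, Oligodendrocyte-like (3.29 ± 1.5) and Microglia-like cells (2.87 ± 0.96) led, each above Granule-like and Excitatory-like cells in 8 of 8 shared replicates. Oligodend2 was above Oligodend1, the other oligodendrocyte type, in 7 of 7 shared replicates.

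Tsc22d3 was highest in vascular and microglial cells, at 1.31 ± 0.84 UMIs per 10000 in Endothelial and 1.3 ± 0.92 in Microglia1. It was lowest in the types annotated as neurons, OPC and BergGlia (0.157 to 0.343). Endothelial was above each of InhibNeuron and ExcitNeuron in all shared replicates but not above Microglia1 (4 of 9). In the cells that were not low-ribosomal, the pooled level was 0.512 in ExcitNeuron, 0.509 in AstroSub1 and 1.42 in Endothelial. ExcitNeuron held 9 Tsc22d3 UMIs in all. In venDG, Mural-like cells had 1.88 ± 1.51 and Excitatory-like cells 0.196 ± 0.149.

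Klf9 was set apart by its low level in microglia. It was at 0.0326 ± 0.0653 UMIs per 10000 in Microglia1 and at 0 of 321344 UMIs in Microglia2, which allows up to 0.0934 per 10000. The other 10 dorDG types had means of 0.472 to 1.43, with AstroSub1 and ExcitNeuron at the top, and AstroSub1 was above both microglial types in 8 of 8 shared replicates. Microglia-like cells of venDG were lowest too, at 0.0996 ± 0.0998 against 0.254 to 1.04 in the other classes.

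Fkbp5 and Per1 showed little order. Fkbp5 was highest in InhibNeuron (0.468 ± 0.227 UMIs per 10000, n = 6), above Endothelial and both microglial types in 6 of 6 shared replicates, and lowest in Mossy (0.0468 ± 0.0812). Its pooled level was higher in low-ribosomal than in other cells in 11 of 12 dorDG types and 6 of 10 venDG classes. Per1 ran from 0.699 ± 0.526 in ExcitNeuron to 2.03 ± 1.53 in BergGlia. No neighbouring types differed beyond their SD, as was also the case for Nr3c2.

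**Figure D5:**
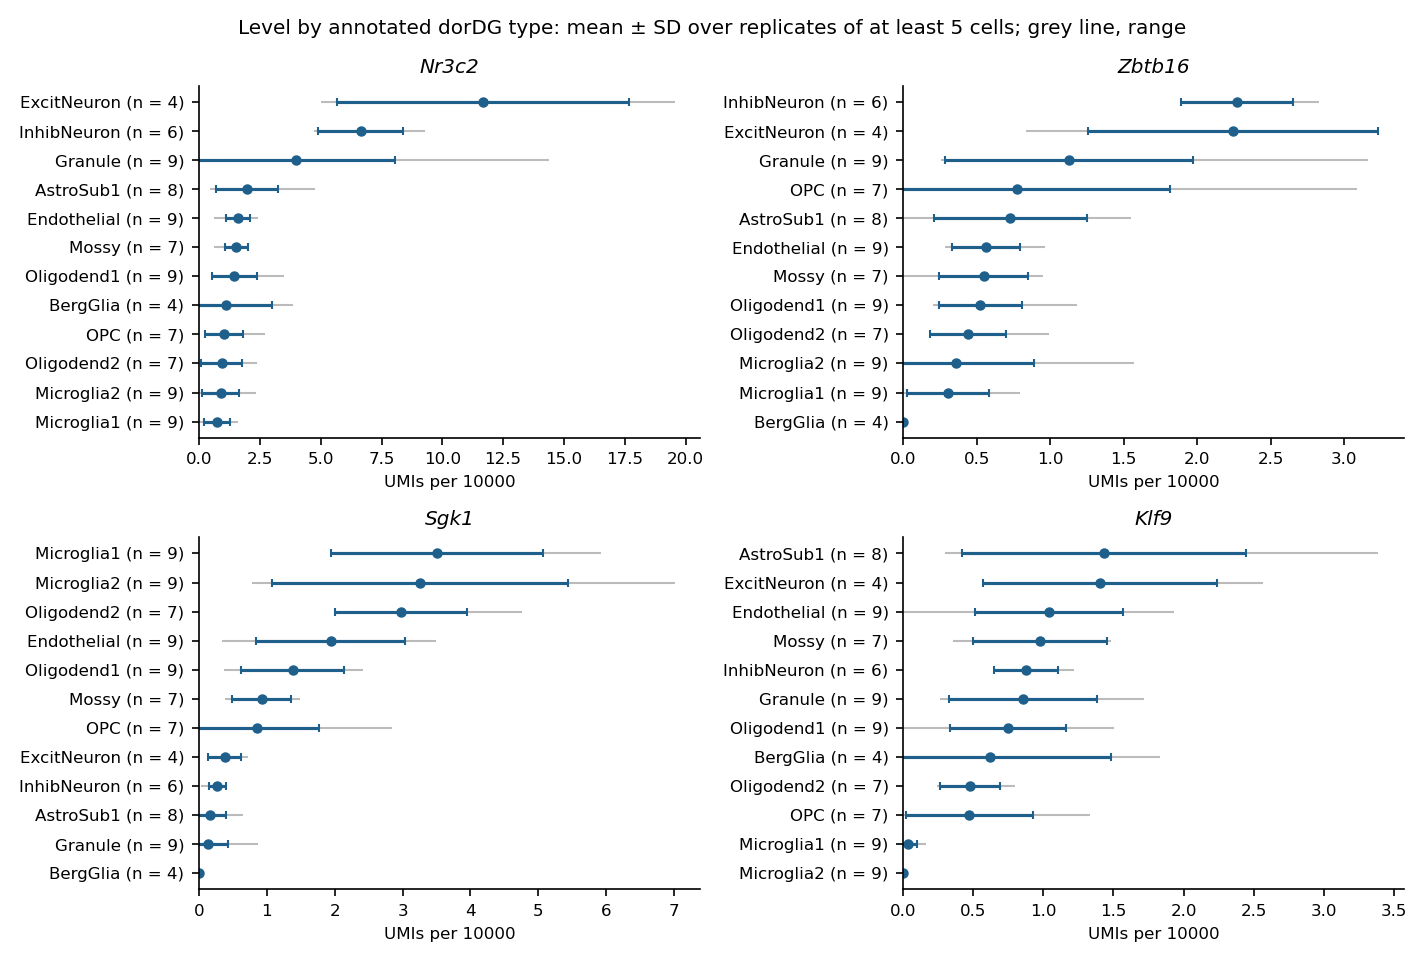
Level of Nr3c2, Zbtb16, Sgk1 and Klf9 in UMIs per 10000 (x axis, linear) in each annotated dorDG type, ordered by mean, with mean ± SD (points and bars) and range (grey lines) over replicates with at least 5 cells. Nr3c2 and Zbtb16 peak in ExcitNeuron and InhibNeuron, Sgk1 in microglia and Oligodend2, and Klf9 is near 0 in both microglial types.

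Over the 11 dorDG types with at least 50 cells, member levels on a log2 scale were correlated with those of 7199 genes as a description of likeness. All types share libraries, depth and the split into low-ribosomal and other cells. Nr3c2 and Zbtb16 had a Pearson r of 0.97 and Sgk1 and Tsc22d3 of 0.78, while Nr3c2 and Sgk1 had -0.82. Most like Nr3c2 were Galnt18, Robo3 and Nrn1 (each 0.98), and most like Zbtb16 were Pinlyp, Gabbr2 and Erc1 (each 0.98). For Sgk1 they were Pfn1 (0.94), Clta (0.93) and Ftl1 (0.92), and for Tsc22d3 Ctsl (0.98), Dusp1 (0.95) and Tmsb4x (0.95). Klf9 was nearest to Ccar1 (0.96), Nedd4 (0.96) and Ubn1 (0.95), and Fkbp5 to Lrtm2 (0.95), Dscaml1 (0.95) and Crtac1 (0.94). For Nr3c1 (Foxo1 0.84, Rsu1 0.81, Lpcat3 0.80) and Per1 (Hnrnpdl 0.83, Rtn1 0.80, Tiparp 0.80) the nearest genes were less alike.

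Within types, FT and Sham were compared for 9 dorDG types with enough cells, which left out ExcitNeuron, InhibNeuron and BergGlia. Of 45 member tests, 0 passed by edgeR against 0.686% of tests over all genes, and 4 had an unadjusted p under 0.05. These were Sgk1 in Oligodend1 (log2 fold change 0.98 ± 0.42 (SE), adjusted p = 0.259), Tsc22d3 in Endothelial (1.02 ± 0.44, adjusted p = 0.823), Per1 in Oligodend2 (-1.10 ± 0.45, adjusted p = 0.999) and Nr3c1 in AstroSub1 (-1.64 ± 0.82, adjusted p = 0.826). The Nr3c2 estimate was below 0 in 8 of 9 types (-0.83 to 0.41), that of Sgk1 above 0 in 6 of 7 and that of Klf9 above 0 in 5 of 5. The same replicates enter every type, so these counts are not independent. Restricted to cells with at least 2% ribosomal UMIs, 4 of these types could be tested, with 0 members called. Without FT replicate 2, edgeR called Sgk1 (1.13, adjusted p = 0.160) and Nr3c2 (-1.37, adjusted p = 0.125) in Oligodend1, and without Sham replicate 4 it called Sgk1 there (1.39, adjusted p = 0.108). In 8 venDG classes, 0 of 39 member tests passed against 0.47% of tests over all genes, and 0 had an unadjusted p under 0.05. Without venDG FT replicate 1, Zbtb16 (-1.64) and Nr3c2 (-1.14) were called in Astrocyte-like cells, and without venDG Sham replicate 4, Nr3c2 (-0.94) was called in Oligodendrocyte-like cells.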

How the data were processed

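The authors deposited raw counts, UMIs per gene and cell, for dorDG and venDG, made with Cell Ranger 2.1.0. The submitters' processing notes also name Seurat 3 and genome build rn5. The deposited annotation of dorDG gives per-cell information of another kind, a type name. The authors' normalized venDG table was not used. From the venDG table, 170 columns with an unexplained second suffix were left out, 167 of which repeat a barcode of the same reaction. Of the 36 pairs of replicates within groups none were duplicates (chi-square per degree of freedom 2.97 to 17.1). Groups and replicate numbers came from the labels, and the authors' own replicate numbers, which differ, were not used.

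Counts were summed per replicate, with reactions added, and tested in R 4.3.3 with edgeR 4.0.16 (TMM, quasi-likelihood F-test, Benjamini-Hochberg adjustment over all genes tested), after filters of 0.1 UMIs per 10000 over all cells and 0.5 within types. A call needed an adjusted p no higher than 0.2 and a log2 fold change of 0.322 or more in size. Types needed 5 cells in each of 3 replicates per group. Levels are UMIs per 10000 UMIs of the same cells, from 3′ tags, and were not compared between genes. For single values, exact permutation tests were two-sided (scipy 1.17.1), with a smallest p of 0.0159 in dorDG and 0.00794 in venDG. venDG cells were clustered with scanpy 1.11.5 (2000 variable genes, 30 components, 15 neighbours, Leiden resolution 2) and named where at least 3 fixed markers were 2-fold above the rest and in 10% of cells. No doublet caller was run. Low-ribosomal cells were split at 2% of UMIs from 120 ribosomal protein genes. First and second reactions follow the order of their names. DESeq2 1.42.0, limma 3.58.1, other scalings, filters, cell subsets, the replicate block and each replicate left out were alternatives. The fits were tested on simulated data. Intervals cover counting error only. Genes named beyond the members were, per pathway list, at most 4 called genes by size of change, and the 3 genes most like each member. RefSeq GRCr8 was used for promoter windows and no other coordinates. The members and lists were chosen with earlier results of these data known.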

Additional observations from a re-analysis of the deposited data

Results flagged for a closer look

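Among 52 sets of 4 to 10 values checked, 4 had a single value far from the rest by Dixon's ratio, where chance flags about 1 in 20 such sets. Tsc22d3 in dorDG Sham was highest in replicate 4, at 0.986 UMIs per 10000, with the next at 0.537. Per1 in dorDG Sham was highest in replicate 2, at 2.40 UMIs per 10000, with the next at 0.999. Zbtb16 in venDG Sham was highest in replicate 3, at 1.32 UMIs per 10000 with the next at 0.634, and this replicate also had the fewest cells (42) and the highest low-ribosomal share of its group (61.9%). Klf9 among the second reactions was highest in dorDG FT replicate 2, at 2.26 UMIs per 10000, with the next at 1.15. What set these values apart was not tested.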

How the results depend on the processing

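In dorDG FT against Sham the count of members called was 0 and became 2 under DESeq2, 2 with total UMIs only and no TMM, 3 with a filter of 0.5 UMIs per 10000, and 0 to 4 with 1 replicate left out. The no-TMM scaling was added after seeing the data and moved the median of all genes from -0.03 to -0.17. Genes called there went from 103 (41 higher, 62 lower) to 1095 under DESeq2, 1221 with the higher filter, 207 with no filter, 852 (135 higher, 717 lower) without TMM, 41 in cells under 2% ribosomal UMIs, 4 with the low-ribosomal share as covariate, and 0 with limma or in cells of 2% or more. Over both regions the members called went from 0 to 3 under DESeq2, 3 with the higher filter and 0 to 3 with 1 replicate left out, and genes called from 1516 to 49 with no filter, 956 with limma, 13 and 0 in cells under and over 2%, and 5 with the covariate. Without TMM the split of 865 higher and 651 lower became 448 and 1268, and that between reactions went from 4077 and 4103 to 6203 and 2936. Between regions it went from 0 to 1, always Nr3c2, under DESeq2, in cells under 2% ribosomal UMIs, with the covariate, and to 0 to 1 with 1 replicate left out. Genes called there went from 25 to 65, 80 and 33 in the first 3, 50 with no filter, 9 with the higher filter or limma, and 0 in cells of 2% or more. Within dorDG types and venDG classes, leaving out 1 replicate gave 0 to 2, and DESeq2 gave 0. The count of member levels with an exact permutation p of at most 0.05 was 2, and 1 with each cell weighted alike, 0 in cells of 2% ribosomal UMIs or more and 1 to 2 with 1 replicate left out. The receptor share in dorDG differed by -10.6 percentage points (FT minus Sham), by -5.11 (p = 0.0159, exact permutation test) in cells of 2% or more, and by -13.97 to -8.52 with 1 replicate left out. Between reactions, 7 to 8 members were called with 1 replicate left out. In venDG, 0 members were called under all 10 alternatives other than leaving out a replicate, and 3 genes with no filter.

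A called value changed direction in 2 cases. Per1 in dorDG went from -0.01 to 0.68 without Sham replicate 2 (range -0.19 to 0.68), and Nr3c1 between reactions from -0.43 to 0.12 without TMM. What turned them was not tested. Estimates that were not called changed sign under at least 1 alternative other than leaving out a replicate for 5 of 8 members in dorDG (Nr3c2 -1.10 to 0.12, Tsc22d3 -0.41 to 0.69, Nr3c1 -0.45 to 0.24, Fkbp5 -0.38 to 0.39, Per1 -0.24 to 0.32). This held for 7 over both regions (Nr3c2 -0.52 to 0.14, Zbtb16 -0.50 to 0.17), 1 in venDG, 4 in the interaction and 0 between regions.

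Deviations of same-numbered FT and Sham replicates had correlations of -0.22 to 0.36 in dorDG (2 of 4 over 0.1) and -0.16 to 0.26 in venDG (4 of 5 over 0.1). Over all pairs of groups the median was 0.25 for the same number (27 pairs) and -0.063 for different numbers (108 pairs). The main fits did not take the numbers as pairs of FT and Sham. Any spread that goes with the number stayed in those fits. Across regions, the same number gave 0.20 to 0.56 in Sham (5 of 5 over 0.1) and 0.096 to 0.35 in FT. With the replicate number as a block, 2 members were called over both regions (Klf9 0.36, Tsc22d3 0.50), 1 between regions (Nr3c2 -0.77) and 0 in dorDG, with 1926, 66 and 5 genes called. Within Sham, Nr3c2 was called between regions with the block too (-1.28). In dorDG 1 of 4 and in venDG 3 of 5 FT replicates correlated best with their own number.

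Depth limits Fkbp5, which had 4 to 20 UMIs per replicate, the fewest of the members.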
